A study of Mus musculus with 14 samples.

Results

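Microglia, the resident macrophages of the spinal cord, depend on 2 extracellular signals, and the 10 genes described here are the ligands, receptors and effectors of those signals. The genes are Csf1r, Csf1, Il34, Csf2ra, Csf2rb, Tgfb1, Tgfbr1, Tgfbr2, Smad3 and Smad7, and they were picked by symbol out of the 55335 genes of the count tables. Csf1r is the receptor tyrosine kinase that keeps microglia alive, and Csf1 and Il34 are its ligands. Csf2ra and Csf2rb are the alpha and common beta chains of the receptor for granulocyte-macrophage colony-stimulating factor, a related cytokine of the myeloid lineage. Tgfb1 encodes TGF-beta1, which is secreted in a latent form and, once released, is bound by Tgfbr2. Tgfbr2 then recruits and activates Tgfbr1, which phosphorylates the transcription factor Smad3. Smad7 is the inhibitory Smad that limits this signal. In the healthy central nervous system, TGF-beta1 is known to maintain the gene programme that tells microglia from other macrophages.

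The series profiled whole spinal cords of mice by droplet-based single-cell RNA sequencing with unique molecular identifiers (UMIs), 1 library per sample, and addresses what the myeloid receptor Clec7a does for the microglial response in a model of amyotrophic lateral sclerosis. All 14 libraries came from animals aged P115-120, counted in days after birth. The SOD1G93A group (3 libraries, strain B6SJL-Tg(SOD1*G93A)1Gur/J) carries a transgene for mutant human SOD1. The nTg group (3 libraries) carries no transgene, and its strain label says no more than nTg. The Clec7a-KO group (4 libraries, B6.129S6-Clec7atm1Gdb/J) lacks functional Clec7a in all cells, and the SOD1G93A/Clec7a-KO group (4 libraries) combines the transgene with that knockout. The strain labels differ between the groups and do not say whether the backgrounds were matched, nor whether each library came from 1 animal. Effects of genotype and of strain background therefore cannot be told apart from the labels. The p-values below set differences between groups against the spread between libraries. Cords were dissociated with warm enzymes and depleted of myelin, steps that bear on which cells are recovered and on stress genes.

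The libraries held 3096 to 12367 barcodes and 28819852 to 141204910 UMIs, with a median of 5190.5 to 14886 UMIs per barcode. Clec7a itself gave 57449 to 101134 UMIs in the SOD1G93A libraries, 755 to 1767 in the nTg libraries and 33 to 240 in the 8 libraries labelled as knockout, so the counts follow the labels. Any pair of libraries shared 2 to 44 barcodes, at most 0.474% of the smaller library. After filtering, 89225 cells remained and were clustered without the 10 genes. Clusters were named from marker genes as microglia-like (51926 cells), endothelial-like (11795), ependymal-like (7671), astrocyte-like (5840), oligodendrocyte precursor-like (3917), mural-like (1669), neuron-like (1162), T and NK cell-like (708) and border-associated macrophage-like (571), and the "-like" is left out below. A cluster of 3766 cells with both endothelial and mural markers stayed unnamed. Neutrophils (116 cells) and fibroblasts (84) were too few to test. All 12 microglial markers used, P2ry12 and Tmem119 among them, were detected in every microglial cluster. A microglial cluster of 2221 cells and low depth (0.287 of the median of its own libraries) was led by the haemoglobin genes Hba-a2, Hbb-bs, Hbb-bt and Hba-a1, so its place in the class is uncertain, and without it the number of members called in microglia was the same in each of the 5 comparisons made. Neither Csf1r nor any other of the 10 genes was among the markers.

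Levels are given in CPM, the UMIs of a gene summed over all cells of 1 class in 1 library per 1000000 UMIs of that class, scaled by edgeR's trimmed mean of M-values within each of the 6 tested classes. Levels in the other classes and in single clusters are plain CPM, without that scaling. Percents of the microglial level, for genes and for marker sums, also come from plain CPM, taken within a library. In nTg microglia the scaling factors were 1.19 to 1.24, which makes the scaled level lower than plain CPM. Overlaps and near-equal levels between classes therefore depend on the scale. The 10 genes were measured on different totals, from 7762 UMIs for Il34 to 1203489 for Csf1r over all libraries. Csf1 gave 254115 UMIs, Csf2ra 147974, Csf2rb 75738, Tgfb1 293378, Tgfbr1 275609, Tgfbr2 192192, Smad3 19402 and Smad7 181407. A UMI count of a 3' library also depends on the gene's 3' end, so levels are compared for 1 gene across cells and groups and not between genes.

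Under the GRCm38 annotation, Csf1 is at chr3:107741048-107760469 on the minus strand, Csf2ra at chr19:61223957-61228429 on the minus strand, Csf2rb at chr15:78325752-78353847 on the plus strand and Il34 at chr8:110741829-110805924 on the minus strand. Tgfb1 is at chr7:25687002-25705077 and Tgfbr1 at chr4:47353222-47414931, both on the plus strand, and Tgfbr2 (chr9:116084293-116175360) and Smad3 (chr9:63646767-63757994) are on the minus strand of 1 chromosome. Il34 is overlapped on the other strand by Gm15894 and Gm15895. The 250 bases before the RefSeq transcription start (GRCm38.p6) of 3 genes are shown because Csf1 and Csf2ra were the ligand and the receptor chain with the largest increases in microglia, and Tgfbr2 was a receptor chain of both microglia and endothelial cells. Both strands were searched for GAGGAAG (a PU.1 core, PU.1 being the macrophage factor encoded by Spi1), GGGA and TCC separated by any 3 bases (NF-kB), TGANTCA (AP-1), CAGACA (a Smad box) and GTCTAGAC (the Smad palindrome), and capitals mark the matches.
Csf1, chr3:107760470-107760719, minus strand: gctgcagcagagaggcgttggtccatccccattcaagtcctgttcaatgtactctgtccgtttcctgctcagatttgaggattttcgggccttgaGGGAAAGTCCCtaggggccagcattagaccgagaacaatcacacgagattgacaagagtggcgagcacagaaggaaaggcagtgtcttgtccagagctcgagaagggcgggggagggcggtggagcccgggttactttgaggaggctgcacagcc
Csf2ra, chr19:61228419-61228668, minus strand: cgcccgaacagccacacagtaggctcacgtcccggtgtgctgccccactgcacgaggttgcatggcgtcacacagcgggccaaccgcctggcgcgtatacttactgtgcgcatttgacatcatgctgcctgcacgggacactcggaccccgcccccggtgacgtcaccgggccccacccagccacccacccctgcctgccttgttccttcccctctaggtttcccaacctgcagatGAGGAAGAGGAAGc
Tgfbr2, chr9:116175364-116175613, minus strand: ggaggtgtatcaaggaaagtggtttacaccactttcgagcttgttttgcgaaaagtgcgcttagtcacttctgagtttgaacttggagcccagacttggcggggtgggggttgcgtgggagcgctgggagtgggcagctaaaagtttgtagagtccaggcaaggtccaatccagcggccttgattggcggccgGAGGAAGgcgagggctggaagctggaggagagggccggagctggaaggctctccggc
The Csf1 stretch holds 1 overlapping pair of NF-kB matches, 1 on each strand, starting 155 and 154 bases before the start. The Csf2ra stretch holds the PU.1 core at 14 and 8 bases before the start, and the Tgfbr2 stretch holds it at 57 bases. Among 32851 RefSeq promoter stretches of the same length, 3.86% hold the NF-kB match, 10.6% the PU.1 core, 6.75% the AP-1 match, 17.1% the Smad box and 0.167% the palindrome. The first listed starts of Tgfb1, Tgfbr1 and Smad3 had no match in this window, and the second listed start of Tgfbr1 had the PU.1 core at 95 and a Smad box at 203 bases before it. A match describes letters and is neither a bound site nor a cause of a level.

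Among the ligands, Csf1 and Il34 differed in the classes with their highest levels. Csf1 was present in microglia at 66.8 ± 24.3 CPM (SD, n = 3) in nTg cords, beside 39.4 ± 22.2 in endothelial cells, 38.1 ± 6.27 in astrocytes, 32.0 ± 9.06 in the unnamed endothelial and mural cluster, 21.5 ± 1.04 in ependymal cells, 19.3 ± 0.923 in oligodendrocyte precursors and 8.28 ± 3.91 in mural cells. The 3 microglial values of 60.1, 46.6 and 93.9 lay above every astrocyte value (31.2 to 43.4) and every value of the unnamed cluster (23.7 to 41.7), and overlapped with the endothelial values (26.5 to 65.1). Endothelial cells, astrocytes and the unnamed cluster overlapped with one another, and all 3 lay above the ependymal values, which were 20.6 to 22.7. Il34, the second ligand, followed the vessel wall instead. Its level was 308 ± 16.3 CPM in nTg mural cells (pericytes and smooth muscle) and 77.0 ± 6.61 in the unnamed cluster, and the 3 nTg mural values of 293, 325 and 307 lay above every value of the unnamed cluster, the highest of which was 135. Fibroblasts, few in number, gave 332 ± 112 CPM of Il34, and also Csf1 at 78.6, 0 and 115.2 CPM from 1, 0 and 3 UMIs. For Il34, neurons gave 13.8 ± 9.34. Microglia gave 2 to 22 Il34 UMIs per library of 1019 to 7560 microglia, or 0.0724 to 0.305 CPM. Neurons are a known source of Il34 in the forebrain, and they made up few of the cells recovered from these cords.

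**Figure D1:**
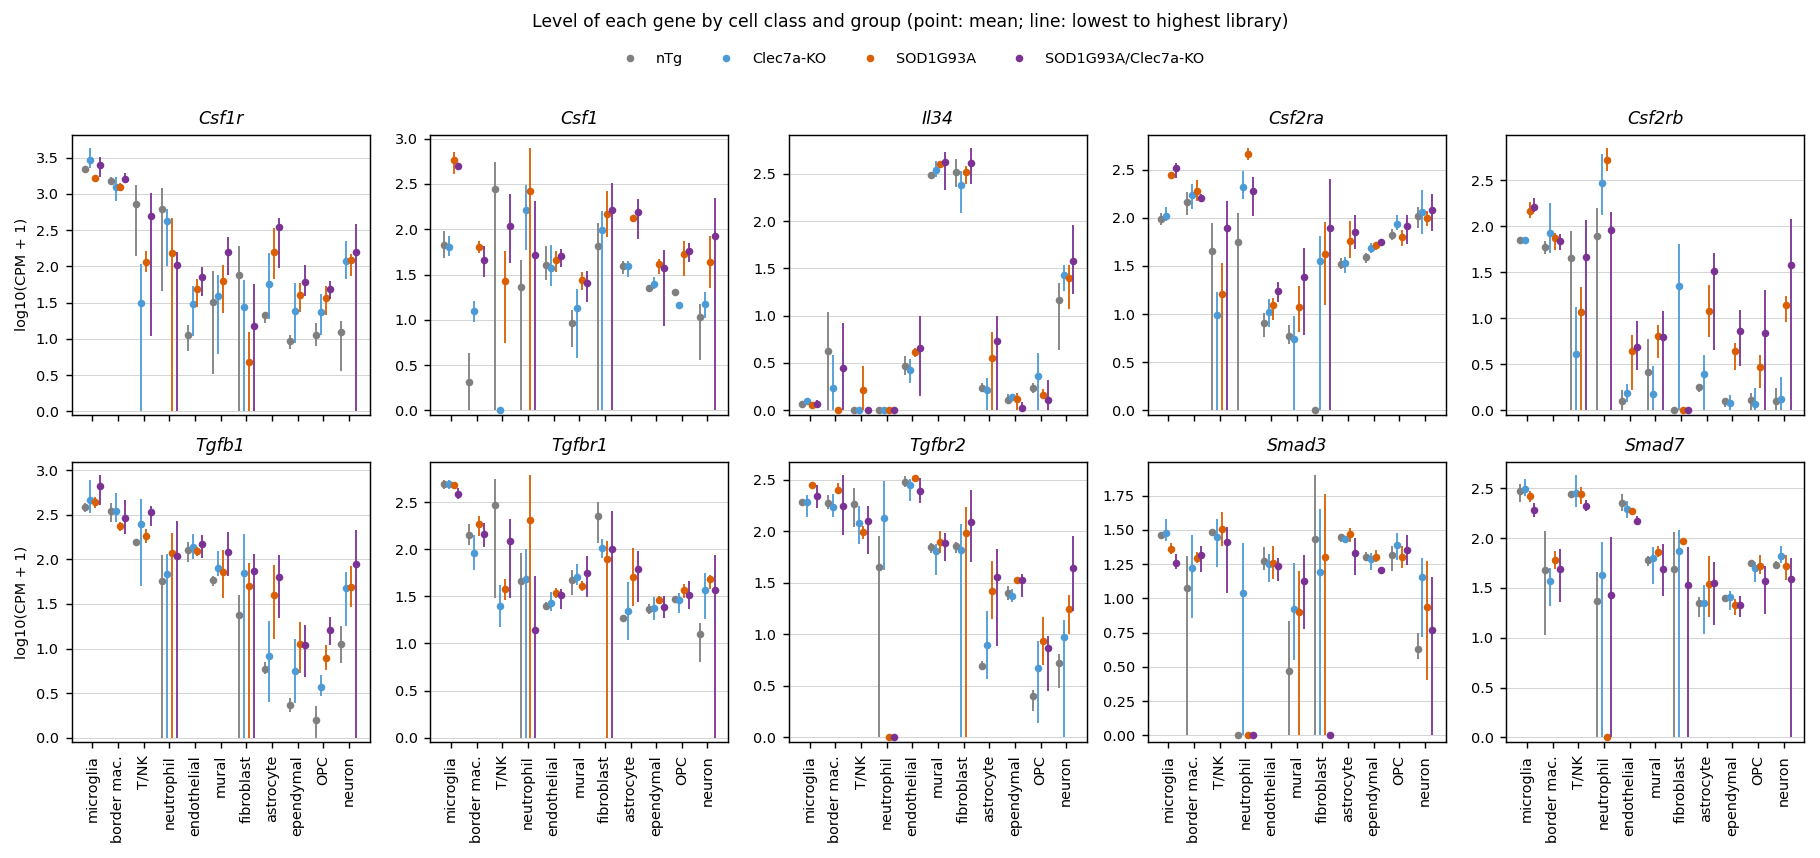
Each panel is 1 gene, with cell classes along the x axis and log10(CPM + 1) on the y axis. Points are group means and lines run from the lowest to the highest library. Il34 is high in mural cells (308 ± 16.3 CPM in nTg) and fibroblasts, Csf1r in microglia (2195 ± 89.8) and border-associated macrophages, and Tgfbr2 in endothelial cells (302 ± 36.3) and microglia.

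Tgfb1 was highest in microglia and border-associated macrophages, the macrophages of the meninges and perivascular spaces. In nTg cords it stood at 384 ± 44.8 CPM in microglia, 349 ± 83.4 in border-associated macrophages, 125 ± 30.9 in endothelial cells, 114.8 ± 24.2 in the unnamed cluster and 58.0 ± 7.61 in mural cells. As given, the levels of both macrophage classes overlapped, and those of endothelial cells and the unnamed cluster overlapped with each other below them. Border-associated macrophages and the unnamed cluster are in plain CPM and the others are scaled, so these overlaps are not shown on 1 scale. T and NK cells are left out of these levels, since 1 nTg library held 0 of them, another 2 and the third 18. Astrocytes, at 4.96 ± 1.01 CPM, ependymal cells, at 1.32 ± 0.432, and oligodendrocyte precursors, at 0.601 ± 0.635, gave next to none.

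The receptors fell into 3 patterns. Csf1r, Csf2rb and Tgfbr1 were chiefly found in myeloid cells. Microglia held 98.5 ± 0.262% of all Csf1r UMIs of an nTg library, 98.1 ± 0.312% of the Csf2rb UMIs and 91.2 ± 0.912% of the Tgfbr1 UMIs, shares that also depend on the cells recovered. The few nTg fibroblasts (2, 8 and 6 cells) gave Tgfbr1 at 315, 241 and 115.2 CPM from 4, 8 and 3 UMIs. Csf1r stood at 2195 ± 89.8 CPM in nTg microglia and 1513 ± 192 in border-associated macrophages, against 8.42 ± 2.10 to 30.8 ± 48.0 in endothelial, ependymal, astrocyte, precursor and mural cells. Csf2ra, the ligand-specific chain, was wider: 97.2 ± 13.8 CPM in nTg microglia and 146 ± 38.5 in border-associated macrophages, and also 102 ± 26.0 in neurons, 66.0 ± 9.36 in oligodendrocyte precursors, 38.0 ± 4.58 in ependymal cells and 31.9 ± 5.03 in astrocytes. In neurons, precursors, ependymal cells and astrocytes Csf2rb was at 0.257 to 0.809 CPM in the nTg group, so the signalling chain of the receptor was at or near 0 where the alpha chain was present. Csf2rb has a near-identical neighbour gene, Csf2rb2, with which it may share reads, so its own values are uncertain to that extent. Tgfbr2 was the receptor chain that endothelial cells carried as well: 302 ± 36.3 CPM in endothelial cells, 265 ± 34.8 in the unnamed cluster, 190.0 ± 8.27 in microglia and 188 ± 32.0 in border-associated macrophages of nTg cords. In plain CPM the endothelial level was 130 ± 8.37% of the microglial level in nTg libraries and 123 ± 8.90, 132 ± 11.3 and 139 ± 9.82% in the Clec7a-KO, SOD1G93A and SOD1G93A/Clec7a-KO libraries. On scaled levels the same percents were 158.5 ± 15.1, 145 ± 3.81, 117 ± 6.56 and 112 ± 7.18%, so the scaling decides whether the ratio is lower with the transgene, and the endothelial level is above the microglial level on both scales.

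The intracellular members were found in several classes as well. Smad3, the effector, was at 28.0 ± 1.21 CPM in microglia, 27.0 ± 1.79 in astrocytes, 19.7 ± 4.38 in oligodendrocyte precursors, 19.04 ± 1.66 in ependymal cells and 17.8 ± 4.34 in endothelial cells of nTg cords, and lower in mural cells (1.96 ± 3.39) and neurons (3.30 ± 1.15). Smad7 was at 298 ± 61.4 CPM in nTg microglia and 222 ± 46.5 in endothelial cells, levels that overlap, and at 21.3 ± 5.23 in astrocytes and 23.8 ± 0.574 in ependymal cells.

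How the UMIs of a cord were divided among classes depends both on levels and on how many cells of each class were recovered, which the dissociation also sets. With that limit, microglia held 53.4 ± 11.7% of the Csf1 UMIs in nTg libraries and 61.9 ± 3.26% in Clec7a-KO libraries, and 97.5 ± 0.385% and 97.0 ± 0.510% in SOD1G93A and SOD1G93A/Clec7a-KO libraries. Endothelial cells held 17.9 ± 14.3% and ependymal cells 11.9 ± 4.48% of the nTg Csf1 UMIs. The microglial share of Tgfb1 UMIs was 78.6 ± 3.78% in nTg and 95.3 ± 0.311% in SOD1G93A libraries, and that of Tgfbr2 UMIs 43.1 ± 1.32% and 85.3 ± 2.18%. Il34 kept its place: the unnamed endothelial and mural cluster with the mural class held 68.6 ± 1.77% and 22.9 ± 4.80% in nTg libraries, and 62.5 ± 1.71% and 23.9 ± 1.13% in SOD1G93A libraries.

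**Figure D2:**
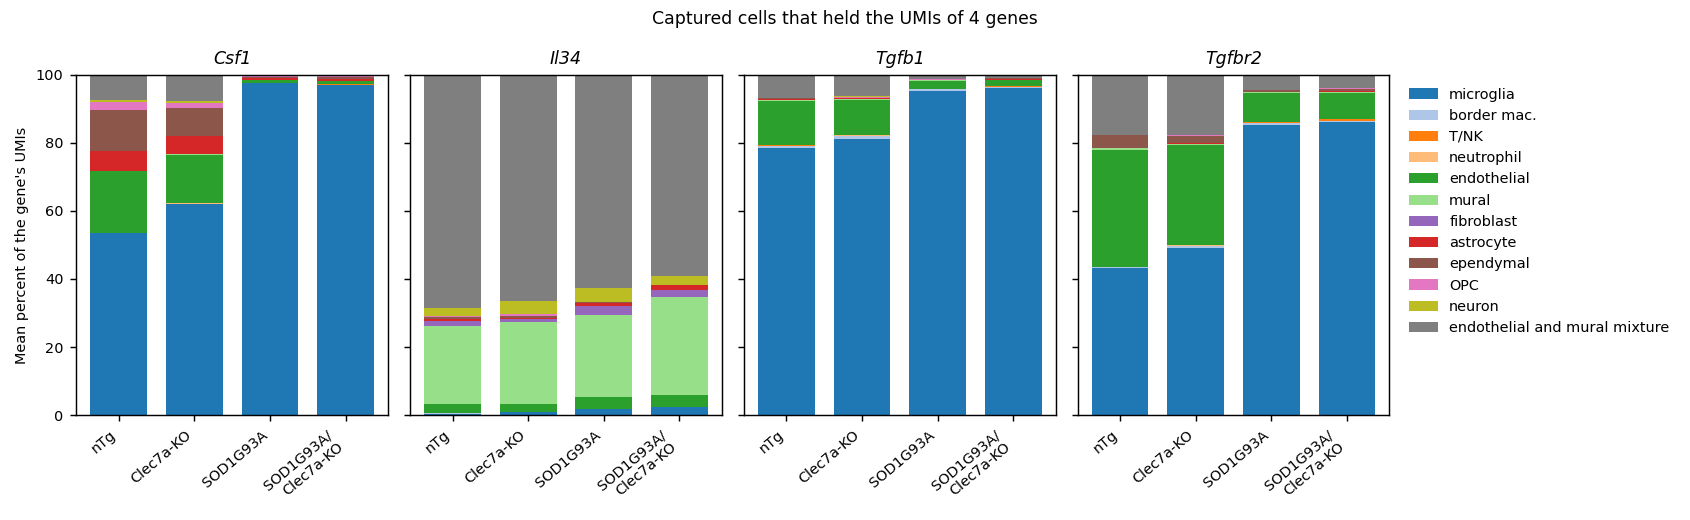
Stacked bars give the mean percent of the UMIs of Csf1, Il34, Tgfb1 and Tgfbr2 held by each class, for the 4 groups on the x axis. The microglial part of Csf1 is 53.4% in nTg and 97.5% in SOD1G93A libraries, while Il34 stays with the mural class and the endothelial and mural cluster in all 4 groups.

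Within microglia, a ligand and a receptor pair were higher in SOD1G93A than in nTg libraries. Csf1 was at 60.1, 46.6 and 93.9 CPM in the nTg libraries and at 403, 709 and 623 in the SOD1G93A libraries. Every SOD1G93A library lay far above every nTg library. The change was 3.11 ± 0.29 on the log2 scale (SE; edgeR quasi-likelihood test on sums per library, Benjamini-Hochberg adjusted p = 2.63e-06 over 16687 genes). Csf2ra was at 83.4, 97.2 and 111 CPM in nTg and 298, 274 and 257 in SOD1G93A libraries, again without overlap, a rise of 1.51 ± 0.18 (adjusted p = 3.06e-05). Csf2rb was at 72.0, 63.4 and 74.3 CPM and at 182, 139 and 121, a rise of 1.08 ± 0.17 (adjusted p = 0.000351) with no overlap. Its neighbour Csf2rb2 rose by 0.90 ± 0.14 (adjusted p = 0.000252), from 18.5 ± 3.05 to 34.5 ± 3.38 CPM. Csf1, Csf2ra and Csf2rb were thus the members called in this comparison, 3 of 9 tested, all higher. Of all genes tested in microglia 32.7% were called, 19.6% as higher, so the number of members called is near the background.

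Csf1r, the receptor of Csf1, did not pass the test. It was at 2094, 2225 and 2265 CPM in nTg and 1816, 1538 and 1636 in SOD1G93A microglia, and every SOD1G93A library was below every nTg library, but the difference of -0.40 ± 0.26 did not pass (adjusted p = 0.259). Scaling by library totals shifted the median of all genes by -0.44 in this comparison, and under it Csf1r was at -0.84 (adjusted p = 0.0077). Il34 was too low in microglia to be tested.

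None of the TGF-beta members passed between SOD1G93A and nTg microglia. The ligand Tgfb1 was at 337, 388 and 426 CPM in nTg and 500, 417 and 379 in SOD1G93A libraries, which overlap (0.17 ± 0.33, adjusted p = 0.72). Its value turned to -0.27 under scaling by library totals. Tgfbr1 was at 543, 431 and 483 CPM against 437, 495 and 517 (-0.01 ± 0.16, adjusted p = 0.982). Tgfbr2 was the nearest to the threshold: 194, 181 and 195 CPM against 257, 304 and 287, without overlap, at 0.57 ± 0.22 (adjusted p = 0.0551). With the replicate number as a block in the fit it passed, at the same 0.57 (adjusted p = 0.02), though the numbers did not pair the libraries. Smad3 was at 27.9, 29.3 and 26.9 CPM against 21.0, 24.3 and 20.3, also without overlap (-0.36 ± 0.16, adjusted p = 0.0943), and Smad7 at 231, 314 and 350 against 228, 297 and 262 (-0.18 ± 0.20, adjusted p = 0.515). Groups that do not overlap were common here, at 53.7% of all genes tested. With library totals in place of the trimmed mean, Smad3 (-0.81, adjusted p = 0.00421) and Smad7 (-0.63, adjusted p = 0.0323) were called as lower.

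**Figure D3:**
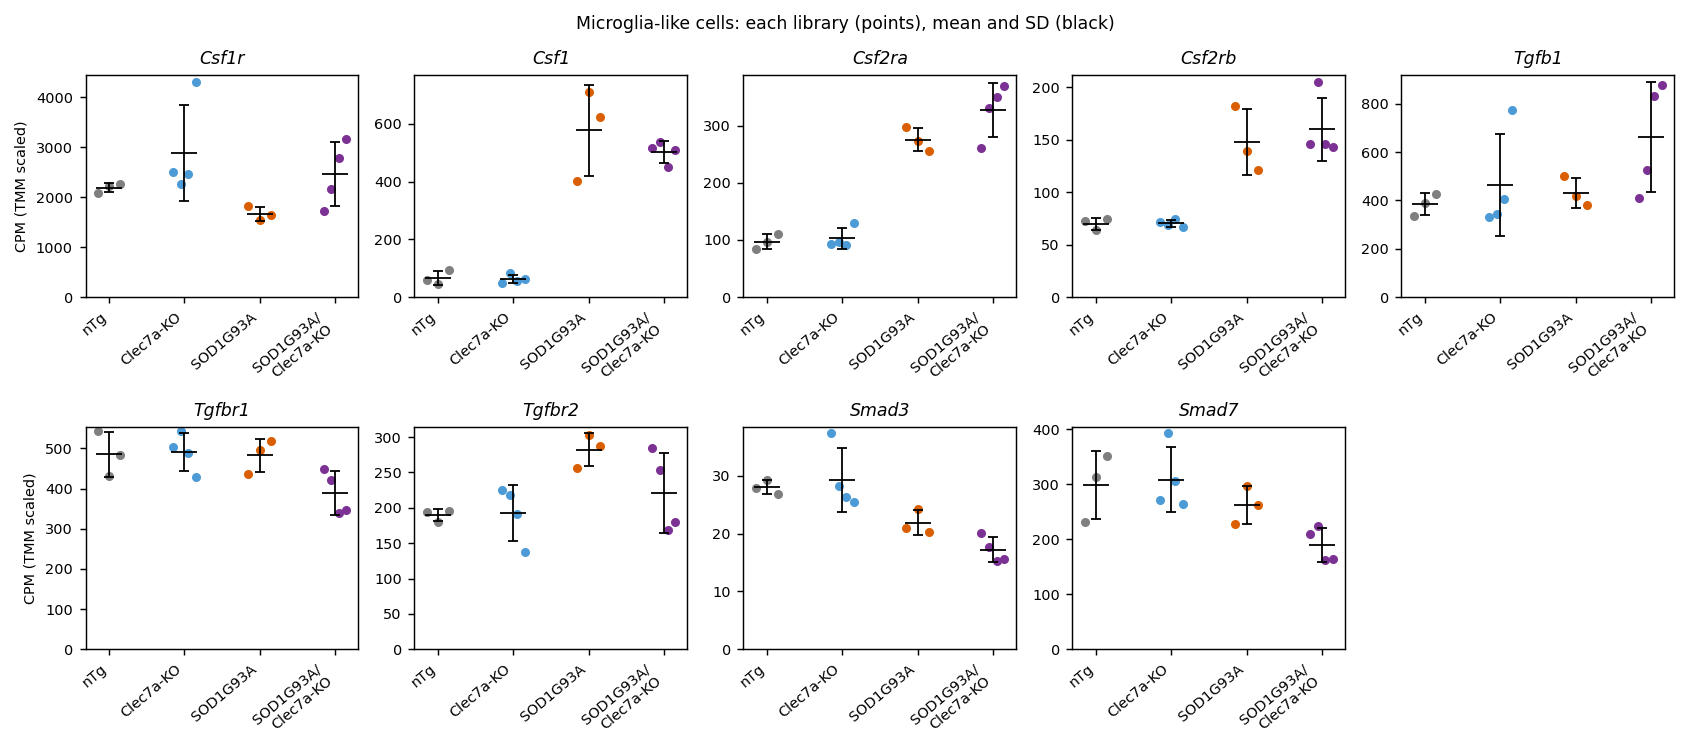
Each panel is 1 gene in microglia, with the 4 groups on the x axis and CPM on the y axis from 0. Points are libraries, and black marks are the mean and SD. For Csf1 the 3 SOD1G93A libraries (403 to 709 CPM) and the 4 SOD1G93A/Clec7a-KO libraries (449 to 536) sit above all 7 others, and Csf1r and Tgfb1 show their highest points in SOD1G93A/Clec7a-KO and Clec7a-KO libraries.

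Between SOD1G93A/Clec7a-KO and Clec7a-KO microglia the same 3 members were called as higher, and Smad3 and Smad7 as lower. Both Smads also had negative values, not called, between SOD1G93A and nTg, and the interaction given below was called for neither. Csf1 was at 49.8, 84.0, 55.2 and 61.3 CPM in Clec7a-KO and 516, 536, 449 and 511 in SOD1G93A/Clec7a-KO microglia, with no overlap (3.01 ± 0.25, adjusted p = 4.91e-07). Csf2ra rose by 1.68 ± 0.16 (adjusted p = 1.69e-06), from 93.1, 95.7, 91.9 and 130 to 262, 331, 351 and 370 CPM, and no library of the former group reached the latter. Csf2rb rose by 1.19 ± 0.15 (adjusted p = 2.69e-05), from 66.7 to 74.1 CPM in the 4 Clec7a-KO libraries to 143 to 205 in the 4 with the transgene. Smad3 fell by 0.77 on the log2 scale (SE 0.14, adjusted p = 0.000467), from 37.3, 28.1, 26.3 and 25.4 CPM to 20.0, 17.7, 15.3 and 15.6. Smad7 fell by 0.70 (SE 0.18, adjusted p = 0.00545), from 271, 392, 306 and 264 CPM to 209, 223, 163 and 164. All 4 double-mutant libraries lay below all 4 Clec7a-KO libraries for both Smads. Here 5 of 9 members were called, against 46.4% of all genes tested (25.5% as higher), and the groups did not overlap for 36.3% of all genes. Csf1r (-0.23 ± 0.23, adjusted p = 0.423), Tgfb1 (0.51 ± 0.28, adjusted p = 0.152), Tgfbr1 (-0.34 ± 0.14, adjusted p = 0.0628) and Tgfbr2 (0.20 ± 0.19, adjusted p = 0.405) did not pass. Under library totals, which moved the median of all genes by -0.51, Csf1r (-0.74) and Tgfbr1 (-0.85) were called as lower and Tgfbr2 turned to -0.32.

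The effect of Clec7a itself on the members was not detectable with these libraries. Between SOD1G93A/Clec7a-KO and SOD1G93A microglia 0 of 9 members were called by edgeR, beside 0.018% of all genes, and 3 members had an unadjusted p under 0.05. Those 3 were Csf1r at 0.57 ± 0.25, Smad3 at -0.34 ± 0.15 and Smad7 at -0.47 ± 0.19, with adjusted p from 0.437 to 0.438. Without the libraries numbered 13 to 16 in the labels, among them 2 of the 4 SOD1G93A/Clec7a-KO libraries, the values were 0.22, -0.21 and -0.28 (adjusted p from 0.72 to 0.742). Csf1 differed by -0.20 ± 0.25 (adjusted p = 0.736). Between Clec7a-KO and nTg microglia 0 of 9 members were called, 0 had an unadjusted p under 0.05, and 0.03% of all genes were called. The difference between the effect of the transgene with and without Clec7a, tested as an interaction, called 0 of 9 members and 0% of all genes, with 0 unadjusted p under 0.05 among the members. Smad7 had the largest such difference, -0.52 ± 0.27, and Smad3 had -0.41 ± 0.21, so the Smad calls in 1 background and not in the other are not shown to differ. DESeq2 also called 0 members in these 3 comparisons. These contrasts share libraries with those above, so their values are not independent of them.

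**Figure D4:**
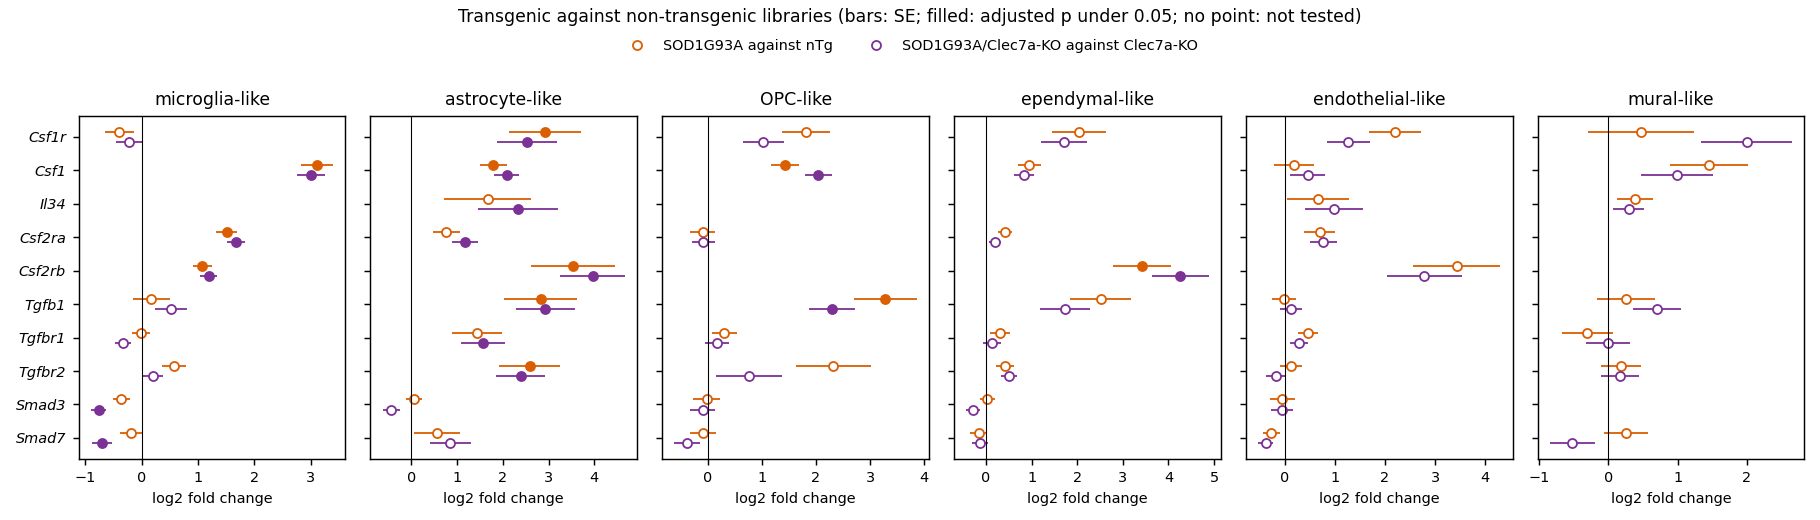
Log2 fold changes of each gene (rows) between transgenic and non-transgenic libraries in 6 cell classes, with Clec7a intact and with Clec7a knocked out. Bars are SEs, filled points have an adjusted p under 0.05, and a missing point was not tested. In microglia Csf1, Csf2ra and Csf2rb are filled to the right of 0 in both comparisons, and Smad3 and Smad7 to the left in the comparison without Clec7a.

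Several measured features of the microglia moved with the transgene beside the members. The summed level of the 12 microglial markers was 25008 to 28728 CPM in nTg and 38837 to 46427 in SOD1G93A microglia. Its genes moved in both directions: P2ry12 and Tmem119 were called as lower, and C1qa, Fcrls and Trem2 as higher. The sum thus does not stand for each marker. The 9 markers of border-associated macrophages summed to 1.98 to 3.46 CPM in nTg and 50.8 to 107 in SOD1G93A microglia, against 7 monocyte markers at 2.08 to 2.82 and 1.90 to 2.80. Among those 9 is Ms4a7, also a leading gene of the Gpnmb-led microglial cluster. A list of 22 genes induced by enzymatic dissociation, such as Fos and Jun, summed to 34911 to 44257 CPM in nTg and 21509 to 24866 in SOD1G93A microglia, and 10 of the 22 were called as lower, where 13.1% of all genes were. It summed to 37339 to 55855 CPM in Clec7a-KO and 21631 to 29141 in SOD1G93A/Clec7a-KO microglia, the comparison in which Smad3 and Smad7 were called as lower, and there 16 of the 22 were called as lower (median -1.04), beside 20.9% of all genes. Their part in the results was not tested. The libraries numbered 13, 15 and 16 in the labels, SOD1G93A/Clec7a-KO replicates 3 and 4 and Clec7a-KO replicate 4, stood apart in several members. They had the highest Csf1r, Csf2ra and Tgfb1 and the lowest Tgfbr1, Tgfbr2, Smad3 and Smad7 of their groups. Tgfb1 was 831 and 876 CPM in the former pair, against 410 and 527 in replicates 1 and 2, and 776 in the latter, against 330 to 407. They make up 2 of 4 SOD1G93A/Clec7a-KO and 1 of 4 Clec7a-KO libraries, the comparison in which both Smads were called as lower. Those 2 calls also passed without these libraries. Without these 3 libraries Csf1, Csf2ra and Csf2rb were still called between SOD1G93A and nTg, joined by Tgfbr2 at 0.58 (adjusted p = 0.00166) and Csf1r at -0.39 (adjusted p = 0.0341). None of the 3 belongs to either group compared, and the values stayed near 0.57 and -0.40. The low-count filter, the scaling, the spread shared by all groups and the adjustment over all genes were computed anew in that fit. Which of them moved the calls was not tested. Whether Tgfbr2 and Csf1r pass between SOD1G93A and nTg thus depends on libraries outside these groups.

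The members also differed between states of microglia. Since they were left out of the clustering, their levels by cluster can be described, though not tested, because the clusters are made of the same cells. In the cluster led by Crybb1, P2ry12 and Tmem119 (11508 cells), a homeostatic signature, Csf1 was at 42.0 ± 21.0 CPM in nTg and 242 ± 65.7 in SOD1G93A libraries, Csf2ra at 103 ± 14.7 and 171 ± 18.7, and Csf1r at 2757 ± 203 and 2395 ± 384. Csf1 and Csf2ra were thus higher in SOD1G93A than in nTg libraries even among the cells of this cluster. A separate cluster of 4351 cells, led by Xist and Tsix with Crybb1, P2ry12 and Tmem119 after them, is not part of these values. Xist, expressed in females, was above the Y-linked Ddx3y in 2 of 3 nTg and 0 of 3 SOD1G93A libraries. The part of sex in this difference was not tested. In the cluster led by Gpnmb, Spp1 and Mmp12 (8528 cells, under 20 in every nTg and Clec7a-KO library) SOD1G93A microglia had 1103 ± 68.9 CPM of Csf1r, 288 ± 24.1 of Csf2ra, 311 ± 25.6 of Csf1, 14.7 ± 1.70 of Smad3 and 173 ± 24.3 of Smad7. The Csf1r, Smad3 and Smad7 levels there were below those of the Crybb1-led cluster of the same libraries, where Smad3 was at 36.3 ± 1.31 and Smad7 at 409 ± 40.7, and the Csf2ra level was above. Csf1 peaked elsewhere, at 638 ± 44.9 CPM in the cluster led by Ifnb1 and Acod1 and 506 ± 12.4 in that led by Gdf15. In the SOD1G93A/Clec7a-KO libraries the Crybb1-led cluster had 20.9 ± 8.63 CPM of Smad3 and 279 ± 33.4 of Smad7, beside 34.9 ± 8.78 and 371 ± 95.03 in Clec7a-KO libraries.

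**Figure D5:**
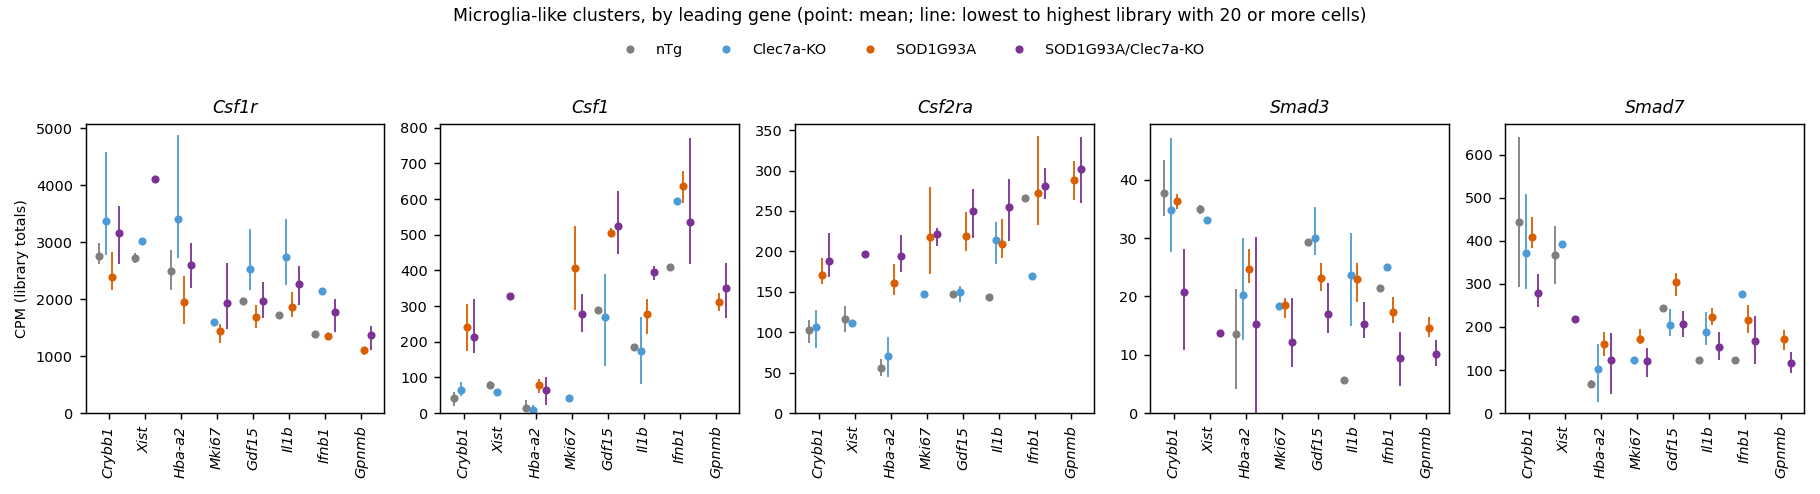
CPM of 5 genes in the microglial clusters, named on the x axis by their leading gene. Points are group means and lines run from the lowest to the highest library with 20 or more cells. Csf1r runs from 2395 CPM in the Crybb1-led cluster to 1103 in the Gpnmb-led cluster of SOD1G93A libraries, and Csf1 is highest in the Ifnb1-led cluster (638).

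Outside microglia, Csf1 rose in 2 glial classes. Xist, expressed in females, was above the Y-linked Ddx3y in 0 of 3 SOD1G93A, 2 of 3 nTg, 1 of 4 Clec7a-KO and 1 of 4 SOD1G93A/Clec7a-KO libraries, so the sexes are unevenly spread over the first pair of groups. In astrocytes Csf1 was at 43.4, 31.2 and 39.8 CPM in nTg and 138, 143 and 119 in SOD1G93A libraries, without overlap, a rise of 1.80 ± 0.30 (adjusted p = 0.000338). In SOD1G93A/Clec7a-KO astrocytes it was at 217, 216, 77.7 and 99.8 CPM, all above the 29.0 to 44.1 of Clec7a-KO (2.08 ± 0.27, adjusted p = 3.91e-05). In oligodendrocyte precursors Csf1 was at 18.5 to 20.3 CPM in nTg and 29.7, 73.8 and 52.2 in SOD1G93A libraries (1.43 ± 0.25, adjusted p = 0.00565), and at 12.6 to 14.3 CPM in Clec7a-KO against 42.9 to 68.8 in SOD1G93A/Clec7a-KO (2.05 ± 0.25, adjusted p = 0.000215). Neither pair of groups overlapped. With Xist above Ddx3y as a covariate, Csf1 between SOD1G93A and nTg was at 1.62 in astrocytes, still called (adjusted p = 0.00819), and at 1.40 in precursors, no longer called (adjusted p = 0.0874), while both calls in the comparison without Clec7a passed (adjusted p = 8.22e-05 and 0.000544). None of the other 6 calls outside microglia between SOD1G93A and nTg passed with that covariate (adjusted p from 0.0585 to 0.141), and their values kept their direction: 4.12 for ependymal Csf2rb, 3.48 for Tgfb1 in precursors, and 2.64, 3.28, 2.11 and 1.94 for Csf1r, Csf2rb, Tgfb1 and Tgfbr2 in astrocytes, beside 3.41, 3.28, 2.92, 3.53, 2.83 and 2.59 without it, in the same order. In astrocytes, 5 of 10 members were called between SOD1G93A and nTg, all higher, where 31.2% of all genes were called and 16.6% as higher, and 8 of 10 between SOD1G93A/Clec7a-KO and Clec7a-KO, where 32.1% were, 17.3% as higher. In precursors 2 of 8 members were called in each comparison, both higher, where 1.57% and 4.07% of all genes were called.

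All astrocyte calls, that of Csf1 included, stood beside a rise in microglial RNA. The 12 microglial markers in astrocytes summed to 1.07 ± 0.287% of their microglial level in nTg, 2.07 ± 2.05% in Clec7a-KO, 9.57 ± 9.08% in SOD1G93A and 15.7 ± 9.92% in SOD1G93A/Clec7a-KO libraries. Csf1r in astrocytes was 0.765 ± 0.162, 1.78 ± 2.16, 9.56 ± 8.23 and 18.4 ± 9.66% of its microglial level in the same order, and Tgfb1 was 1.08 ± 0.257, 1.62 ± 2.17, 8.71 ± 7.94 and 13.8 ± 10.6%. Csf2rb was 0.973 ± 0.306, 1.76 ± 2.03, 7.29 ± 4.66 and 23.7 ± 17.0%, and Tgfbr2 1.70 ± 0.191, 2.85 ± 2.06, 10.1 ± 8.85 and 16.8 ± 10.0%. The values of these 4 genes lay within an SD of the marker share in each group, except those of Csf1r and Tgfbr2 in nTg, while Csf1 stood at 50.1 ± 12.9, 54.1 ± 14.7, 26.7 ± 7.79 and 35.5 ± 13.3%, above that share in each group. Csf2ra, at 27.8 ± 7.57, 28.1 ± 5.13, 21.5 ± 9.42 and 26.5 ± 8.73%, was above it too. Microglial Csf1 rose as well, and the percent for Csf1 was lower with the transgene while its level in astrocytes was higher. The calls in astrocytes between SOD1G93A and nTg were 2.92 ± 0.79 for Csf1r, 3.53 ± 0.92 for Csf2rb, 2.83 ± 0.79 for Tgfb1 and 2.59 ± 0.67 for Tgfbr2 (adjusted p from 0.00775 to 0.0124). These 4 calls rest on SOD1G93A replicate 1, whose astrocytes gave 332 CPM of Csf1r against 66.3 and 68.8 in the other two. Without it the 4 values were 1.75, 2.62, 1.51 and 1.73, with adjusted p from 0.0587 to 0.163. Between SOD1G93A/Clec7a-KO and Clec7a-KO astrocytes the same 4 genes were higher by 2.54 ± 0.66, 3.96 ± 0.71, 2.93 ± 0.65 and 2.40 ± 0.53 (adjusted p from 0.000551 to 0.00732), as were Csf2ra (1.18 ± 0.28, adjusted p = 0.00406), Tgfbr1 (1.56 ± 0.48, adjusted p = 0.0204) and Il34 (2.33 ± 0.87, adjusted p = 0.0499). The Il34 call rests on 2, 8, 5 and 0 UMIs against 7, 1, 2 and 0, near the floor of 3 UMIs, and with the Xist covariate its value was 2.25 (adjusted p = 0.0745). Smad3, whose scaled level in astrocytes is near that in microglia, was at 0.06 ± 0.18 (adjusted p = 0.912) and -0.44 ± 0.19 (adjusted p = 0.0831). The part of microglial RNA in the astrocyte calls was not tested.

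Tgfb1 in oligodendrocyte precursors rose by 3.28 ± 0.58 (adjusted p = 0.00565) between SOD1G93A and nTg and by 2.30 ± 0.43 (adjusted p = 0.00629) between SOD1G93A/Clec7a-KO and Clec7a-KO, from a level of 0 to 1.27 CPM in nTg to 4.81 to 10.1. At 0.141 ± 0.159, 0.573 ± 0.319, 1.82 ± 0.836 and 2.89 ± 1.39% of its microglial level in the nTg, Clec7a-KO, SOD1G93A and double-mutant groups, it was near or under the share of the microglial markers, 0.565 ± 0.181, 0.858 ± 0.484, 2.44 ± 1.37 and 2.83 ± 1.06%. Csf1 in precursors, at 9.81 ± 1.95 to 26.9 ± 10.2% of its microglial level, was above it. On scaled levels the percent was 31.6 ± 11.9 in nTg and 22.15 ± 3.71 in Clec7a-KO libraries. It was lower with the transgene, at 8.72 ± 1.55 in SOD1G93A and 11.3 ± 2.09 in double-mutant libraries. The part of microglial RNA in the rise of Csf1 in precursors was not tested. In ependymal cells Csf2rb was the 1 member of 9 called, at 3.41 ± 0.64 (adjusted p = 0.00872, background 0.972% of genes) and 4.26 ± 0.62 (adjusted p = 0.00111, background 1.3%), from levels of 0.0938 to 0.368 CPM in nTg to 1.73 to 4.43 in SOD1G93A libraries, or 2.52 ± 1.04% of the microglial level where the markers stood at 3.62 ± 1.37%. Csf1 in ependymal cells was at 0.95 ± 0.24 and 0.84 ± 0.22 (adjusted p = 0.0868 and 0.0706).

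The comparisons of Clec7a called no member in the other glial classes. Between SOD1G93A/Clec7a-KO and SOD1G93A, between Clec7a-KO and nTg, and in the interaction, edgeR called 0 members in astrocytes, where 0.00774%, 0% and 0% of all genes were called, and 0 in oligodendrocyte precursors, where 0.00756%, 0.0151% and 0% were. In ependymal cells 0 were called as well, beside 0.0196%, 0.0261% and 0.00652% of all genes. Unadjusted p-values under 0.05 numbered 2, 1 and 0 of 10 members in astrocytes, 1, 2 and 0 of 8 in precursors and 0, 2 and 0 of 9 in ependymal cells, in the same order. DESeq2 also called 0 members in these 3 comparisons over the 5 tested classes other than microglia.

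Neither tested vascular class, endothelial or mural cells, held a member called by edgeR. The unnamed endothelial and mural cluster was not tested on its own. Its Il34 was at 73.1 to 84.65 CPM in nTg and 91.35 to 106.5 in SOD1G93A libraries, and its Csf1r at 7.36 to 8.638 and 30.92 to 81.24. Smad7 alone of the members had a lower mean there in SOD1G93A libraries, 164.2 beside 198.0 CPM. In endothelial cells 0 of 10 members were called by edgeR in any of the 5 comparisons, where 1.03% of all genes were called between SOD1G93A and nTg and 0.839% between SOD1G93A/Clec7a-KO and Clec7a-KO. In each of these 2 comparisons 4 members had an unadjusted p under 0.05. The share of all genes called was 0.00749% between SOD1G93A/Clec7a-KO and SOD1G93A and in the interaction, with 0 members at an unadjusted p under 0.05, and 0% between Clec7a-KO and nTg, with 1. Between SOD1G93A and nTg the 2 largest of the values with an unadjusted p under 0.05 were for Csf2rb (3.43 ± 0.87, adjusted p = 0.098) and Csf1r (2.20 ± 0.52, adjusted p = 0.0616), the latter at 0.382 ± 0.17% and 3.23 ± 1.32% of its microglial level in nTg and SOD1G93A, beside 0.439 ± 0.135% and 3.26 ± 1.08% for the marker sum. DESeq2 called these 2 genes in endothelial cells between SOD1G93A and nTg (adjusted p = 0.00794 for Csf2rb and 0.000944 for Csf1r) and Csf2rb between SOD1G93A/Clec7a-KO and Clec7a-KO (adjusted p = 0.0148). Tgfbr2 (0.13 ± 0.22), Tgfb1 (-0.02 ± 0.25), Csf1 (0.18 ± 0.39) and Smad7 (-0.27 ± 0.17) had adjusted p of 0.969 or more. In mural cells 0 of 7 members were called in any comparison by edgeR or DESeq2, with 1 unadjusted p under 0.05 in each comparison with the transgene, 1 between SOD1G93A/Clec7a-KO and SOD1G93A and 0 in the other two, and a background of 0.0819% and 0.628%, and 0% in the 3 others. Il34 in mural cells was at 293, 325 and 307 CPM in nTg and 417, 391 and 396 in SOD1G93A libraries, without overlap, at 0.38 ± 0.26 (adjusted p = 1). Its double-mutant values of 211 to 539 CPM spanned those of Clec7a-KO, 289 to 425 (0.29 ± 0.23, adjusted p = 0.845).

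Beyond the members, a list of 55 ligands, receptors, regulators and effectors around the CSF1 receptor family held genes called in both directions in microglia. Of the list, 52 were tested, of which 14 were higher and 8 lower between SOD1G93A and nTg, or 42.3% called beside 32.7% of all genes, with a median change of 0.08 beside 0.01 over all genes. Socs2, a cytokine-induced suppressor of signalling, rose by 3.14 ± 0.26, the adaptor Dok2 by 2.40 ± 0.30, the survival gene Bcl2 by 2.21 ± 0.19, the microglial adaptor Tyrobp by 1.52 ± 0.22 and Bcl2a1b by 1.36 ± 0.25 (adjusted p from 1.15e-06 to 0.00101). Bcl2a1b has near-identical copies with which it can share reads. Spry1, an inhibitor of receptor tyrosine kinase signalling, fell by 2.36 (SE 0.42, adjusted p = 0.000686) and the adaptor Dok3 by 1.46 (SE 0.27, adjusted p = 0.000925). Among genes not called, the receptor Csf3r was at 0.01 ± 0.14 (adjusted p = 0.977), the receptor Ptprz1, which binds Il34, at -1.10 ± 0.48 (0.0944), and Spi1 at 0.25 ± 0.17 (0.286). With Clec7a knocked out in both groups the counts were 16 higher and 15 lower, or 59.6% beside 46.4% of all genes.

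The TGF-beta pathway list did not stand out in its count of calls. Of 63 genes 55 were tested, of which 11 were higher and 7 lower, or 32.7% called, the same share as over all genes, with a median of 0.12. Dab2, an endocytic adaptor of TGF-beta receptors, rose by 3.38 ± 0.24, the ligand Tgfb2 by 2.65 ± 0.44, the pseudoreceptor Bambi by 1.73 ± 0.33, the target gene Cdkn2b by 1.63 ± 0.30, and the protease Mmp14 by 1.51 ± 0.23 (adjusted p from 4.06e-07 to 0.00122). Tsc22d3 fell by 1.98 (SE 0.28, adjusted p = 0.000137) and the activin receptor Acvr2a was lower, at -1.498 ± 0.23 (adjusted p = 0.000219). Uncalled were the latency protein Nrros at 0.12 ± 0.28 (adjusted p = 0.772), the integrin chains Itgb8 at 0.66 ± 0.47 (0.293) and Itgav at 0.41 ± 0.19 (0.105), and Smad4, the common partner of Smad3, at 0.09 ± 0.19 (0.758). The counts were 15 higher and 13 lower between SOD1G93A/Clec7a-KO and Clec7a-KO microglia, or 50.9% beside 46.4% of all genes, with a median of -0.10.

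Genes known to need TGF-beta in microglia were mostly lower. Of 23 such genes, 13 were lower and 2 higher between SOD1G93A and nTg (median -0.96), and 15 lower and 2 higher between SOD1G93A/Clec7a-KO and Clec7a-KO (median -1.05). Of all genes tested 13.1% and 20.9% were called as lower in these 2 comparisons. Crybb1 fell by 2.51 (SE 0.43, adjusted p = 0.000534), the fructose transporter Slc2a5 by 2.40 (SE 0.39, adjusted p = 0.000333), the purinergic receptor P2ry12 by 2.02 (SE 0.33, adjusted p = 0.00043), Adgrg1 by 1.92 (SE 0.21, adjusted p = 1.06e-05) and Tmem119 by 1.67 (SE 0.18, adjusted p = 1.44e-05), as did P2ry13 and Selplg, each by 1.27. Fcrls, by 1.79 ± 0.40 (adjusted p = 0.0035), and C1qa, by 1.24 ± 0.24 (adjusted p = 0.0013), rose. Olfml3 (-0.20 ± 0.34), Mertk (-0.32 ± 0.25) and Cx3cr1 (-0.66 ± 0.26) were not called, with adjusted p from 0.0667 to 0.691. Jun is on this list and on the dissociation list, and P2ry12, Tmem119, Crybb1 and others helped to lead the clusters above. Another 7 genes are known to rise when microglia lose TGF-beta signalling or enter the disease-associated state. Which of these applies here was not tested. These genes and the 23 above were listed with earlier results of these data known, so their counts are a description and not a test. All 7 were called as higher between SOD1G93A and nTg, with a median of 4.19, beside 19.6% of all genes. The 6 other than Clec7a, which is deleted in both groups there, were called as higher between SOD1G93A/Clec7a-KO and Clec7a-KO. Their median was 4.19, beside 25.5% of all genes called as higher. In the former comparison the rises were Spp1 by 6.37 ± 0.76, Apoe by 5.40 ± 0.51, Itgax by 4.34 ± 0.46, Clec7a by 4.19 ± 0.41, Lpl by 4.07 ± 0.34, Axl by 3.90 ± 0.36 and Trem2 by 1.34 ± 0.22 (adjusted p from 1.44e-06 to 0.000438). These changes sat beside uncalled values of Tgfb1, Tgfbr1 and Tgfbr2 in the same cells in both comparisons. Between SOD1G93A and nTg, Tgfbr2 was near the threshold (edgeR adjusted p = 0.0551), and neither Smad3 nor Smad7 was called. Between SOD1G93A/Clec7a-KO and Clec7a-KO, Smad3 (-0.77) and Smad7 (-0.70) were called as lower. Between SOD1G93A/Clec7a-KO and SOD1G93A, and between Clec7a-KO and nTg, the 1 gene of these lists that was called was the deleted Clec7a.

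The genes whose levels over 6 classes and 4 groups (24 points, 19825 genes compared, Pearson's r of log2 levels, with the points sharing libraries) were among the 3 most like each member were as follows. They were Spi1 (r = 0.993) and Laptm5 for Csf1r and St14 (r = 0.929) and Npc2 for Csf1. Il34 was most like Foxs1 (r = 0.999), Saa1 and Tbx2. For the cytokine receptor chains the closest were Cln3 (r = 0.949), Mthfs and Sgpl1 for Csf2ra and Lat2 (r = 0.995), Cd48 and Rac2 for Csf2rb. Tgfb1 was most like Mvp (r = 0.978), Syngr2 and Csrnp1, Tgfbr1 like Lcp2 (r = 0.992), Otulinl and Gmip, and Tgfbr2 like Lgals9 (r = 0.959), Dusp1 and Frmd4b. Smad7 was most like Mob1a (r = 0.966), Entpd1 and Irf1. Smad3 had the weakest nearest neighbour, Chka (r = 0.864), followed by Nos1ap and Kdm3a.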

How the data were processed

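Whole spinal cords of 14 mouse samples were measured, 1 library each. The authors deposited a matrix of raw UMI counts per gene and barcode for every library, made with Cell Ranger 3.0.2 per the file headers. The submitters' processing notes name Cell Ranger, Seurat, DESeq2 and the mm10 build, and their settings are not given in the sources used here. Genes were matched by the symbols in the files.

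Cells with at least 500 genes and 1000 UMIs and at most 15% mitochondrial UMIs were kept, and the highest Scrublet scores (0.8% of barcodes per 1000 barcodes) were removed as doublets. Of 108892 barcodes, 7127 failed on depth, 4963 on mitochondrial share and 7577 as doublets. Scanpy 1.11.5 clustered the rest on 1998 variable genes without the 10 genes described, with 30 principal components, 15 neighbours and Leiden resolution 1, giving 25 clusters. A cluster took the name of the marker list with the highest mean log2 fold (at least 1, with 3 or more markers detected), and stayed unnamed where a second list passed 5 on that scale. The names are rebuilt from markers.

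UMIs were summed per library and class. Classes with 20 or more cells in every library were tested with edgeR 4.0.16 (quasi-likelihood, TMM, filterByExpr, 1 fit of all 4 groups), with Benjamini-Hochberg adjustment over all genes and a threshold of 0.05. SEs were derived from the log2 fold change and its F statistic. On simulated data with the microglial means, 29.6% of 98 genes changed by 1 and 78.8% of 99 genes changed by 2 on the log2 scale were recovered (16687 genes, 2.73% false among the calls). Between SOD1G93A and nTg microglia 32.7% of genes were called, a far larger share than was changed here. These rates therefore do not give the power of that comparison. Counts of 3 UMIs or fewer were taken as the detection floor.

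Text names all 10 members, up to 8 called genes of each pathway list with the largest change between SOD1G93A and nTg microglia, uncalled genes by role, and the 3 genes most like each member (log2 with a pseudocount of 10 CPM). C1qa was named after its value was seen. Some genes that this rule picks are not reported here. The members and lists were chosen with earlier results of these data known. Motif shares come from RefSeq promoter tables of GRCm38.p6. Those tables were searched for 6 members, Csf1, Csf2ra, Tgfb1, Tgfbr1, Tgfbr2 and Smad3. Alternatives were DESeq2 1.42.0, library totals, no filter on low counts, a replicate block, sex genes as a covariate, only the groups compared, each library left out, coarser clusters, doublets kept and stricter cell filters. Others were chosen after seeing the data: the library number as a covariate, and leaving out the libraries numbered 13 to 16, the Gpnmb-led cluster or a low-depth cluster. Another of these counted the unnamed endothelial and mural cluster as endothelial. Intervals of the counts cover counting error only.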

Additional observations from a re-analysis of the deposited data

Results flagged for a closer look

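In 120 groups of 4 libraries (1 gene in 1 class), 10 held a library set apart from the other 3 by Dixon's criterion, a criterion that chance meets in about 1 in 20 groups. In microglia these were Csf1r at 4320 CPM and Csf2ra at 130.0 CPM in Clec7a-KO replicate 4, both the highest of their group, and Csf2rb at 204.8 CPM in SOD1G93A/Clec7a-KO replicate 2. Clec7a-KO replicate 4 also had the highest mural Tgfb1 (122.0 CPM) and the lowest mural Tgfbr2 (36.87 CPM) of its group. Csf1r was highest in Clec7a-KO replicate 1 in both ependymal cells (58.75 CPM) and astrocytes (150.8 CPM). The others were endothelial Csf1 at 65.76 CPM in Clec7a-KO replicate 2, ependymal Tgfbr2 at 22.0 CPM, the lowest of its group, in SOD1G93A/Clec7a-KO replicate 3, and Csf2rb in oligodendrocyte precursors at 19.34 CPM in SOD1G93A/Clec7a-KO replicate 2.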

How the results depend on the processing

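In microglia the calls of Csf1, Csf2ra and Csf2rb in both comparisons with the transgene, and of Smad3 and Smad7 in that without Clec7a, kept their direction and passed under every alternative run. The count of called members between SOD1G93A and nTg microglia, 3, was 6 with library totals, and 5 in each of 3 others (only the groups compared, a term for the library number, libraries numbered 13 to 16 left out). Tgfbr2 was the member that most often gained a call, and it passed under the replicate block (0.57, adjusted p = 0.02). In the other classes the count between SOD1G93A and nTg, 8, was 14 with DESeq2, with the replicate block and with only the groups compared, 17 without the filter on low counts, 16 with doublets kept and 1 with the sex genes as a covariate, where the 7 values that lost their call kept their direction (1.40 to 4.12 on the log2 scale), and it ran from 4 to 13 when 1 library was left out. It was 4 without SOD1G93A replicate 1 and 13 without SOD1G93A replicate 3 or Clec7a-KO replicate 1. Without the filter the count was 5 between SOD1G93A/Clec7a-KO and SOD1G93A and 4 between Clec7a-KO and nTg, each 0 otherwise, and 20 between SOD1G93A/Clec7a-KO and Clec7a-KO, where it was 11, and 22 with doublets kept. Called genes of the TGF-beta pathway list rose from 18 to 30 with the library number as a covariate. The causes were not tested. The replicate numbers did not pair the samples: deviations of 19 same-number pairs correlated at -0.18 to 0.39, 9 of them above 0.1. Of all genes in microglia, 3 were called between SOD1G93A/Clec7a-KO and SOD1G93A (42 with DESeq2, 15 without the filter, 7 with the library number, 5 with the replicate block, 13 without SOD1G93A replicate 1) and 5 between Clec7a-KO and nTg (10 with DESeq2 and without the filter, 8 without nTg replicate 1, 3 without nTg replicate 2). Over 6826 comparisons of 265 results with an alternative, 37 lost a call, 128 gained one and 0 called values changed sign. Groups of 3 and 4 libraries limit what can be called, and Il34 in microglia was limited by its UMIs.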
